A study of Schmidtea mediterranea with 6 samples.

Results

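Among 28069 assembled planarian transcripts, 63 were selected as standing at 2 times the control level or more in animals fed double-stranded RNA (dsRNA) of *nkx2.2*, a transcription factor of the intestine. They included matches of lysosomal enzymes, lipid enzymes, matrix proteins and signalling adaptors. Of the 60 members that the study's annotation covered, 31 had no protein match in it. A transcript entered the set when its mean level in *nkx2.2(RNAi)* libraries was at least 1 CPM (the count divided by the sum of all counts of the library and multiplied by 1000000), when all 3 *nkx2.2(RNAi)* libraries lay above all 3 control libraries, and when the ratio of the 2 group means was at least 2. The members were thus selected on the CPM values of the comparison itself, so the rise of the members is a description of the choice and carries no test. The members and the lists below were also chosen with earlier results of these data known.

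The libraries were made from whole, uninjured *Schmidtea mediterranea*, a freshwater flatworm, of the asexual clonal line CIW4. *nkx2.2(RNAi)* animals had been fed once with 1 µg of *nkx2.2* dsRNA in liver paste, control animals once with 1 µg of *egfp* dsRNA, which encodes a jellyfish protein that planarians lack, and all were starved for 7 days before extraction. Each group had 3 biological replicates, for which the labels give 6 to 10 pooled animals each, so the spread between libraries is a spread between pools of a single clonal line. *nkx2.2* itself (dd_Smed_v6_2716_0_1) stood at 9.54, 8.21 and 8.28 CPM in *nkx2.2(RNAi)* libraries against 176, 220 and 179 CPM in control libraries, which matched the labels.

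The planarian intestine is a branched gut built from phagocytes, which take up and digest food particles within the cell, together with secretory goblet cells and basal cells, and all of them are replaced by the progeny of dividing stem cells called neoblasts. Nkx2.2 proteins belong to the NK family of homeodomain factors, which bind DNA through a helical domain and in vertebrates act in the gut, pancreas and nerve cord, often by repressing genes of alternative fates. Much of the degradation in a phagocyte takes place in lysosomes, where cathepsins cut proteins, nucleases cut RNA and phospholipases cut membrane lipids.

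The homeobox of *nkx2.2* is printed because it encodes the DNA-binding part of the silenced gene, and it is the gene whose transcript the dsRNA was made to remove. It was read from the clone sequence that the study lists, where it covers 60 codons, bases 90 to 269 of the clone on its plus strand. The capitals mark the codons of the recognition helix, the part of a homeodomain that lies in the major groove of DNA. Sequences of the members themselves were not used here.
nkx2.2 homeobox: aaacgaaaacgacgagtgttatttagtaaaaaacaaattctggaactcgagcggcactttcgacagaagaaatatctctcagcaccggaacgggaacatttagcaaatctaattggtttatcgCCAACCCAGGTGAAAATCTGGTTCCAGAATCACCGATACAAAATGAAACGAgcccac

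In the summed level of the 63 members, *nkx2.2(RNAi)* libraries held 3115, 3329 and 3350 CPM, against 1271, 1185 and 1329 CPM in control libraries. A single transcript, dd_Smed_v6_266_0_1, made up 40.4% to 45.7% of this sum in *nkx2.2(RNAi)* and 46.7% to 48.3% in control libraries. Without it the sums were 1857, 1868 and 1821 CPM in *nkx2.2(RNAi)* and 675, 632 and 687 CPM in control libraries, as the rule requires of each member. Ratios of the group means ranged from 2.00 to 33.6 with a median of 2.67. Most were small: 39 members lay between 2 and 3, 13 between 3 and 5, 7 between 5 and 10, and 4 at 10 or more. Levels covered a wide range, with group means in *nkx2.2(RNAi)* of 1.06 to 1416 CPM (median 9.86 CPM), and 7 members at 100 CPM or more. In control libraries 21 of the 63 lay under 1 CPM on average. No member was without counts in all controls, and only dd_Smed_v6_31926_0_1 had a control library at 0.

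**Figure D1:**
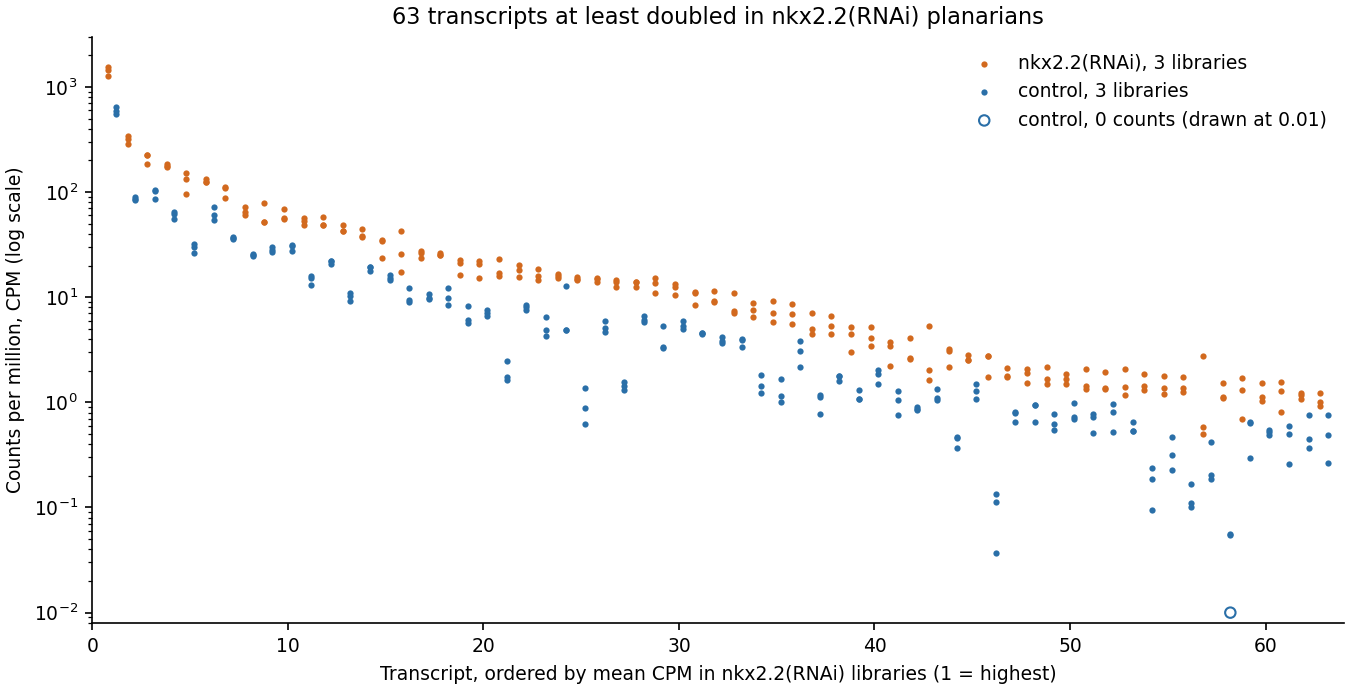
Level of each of the 63 transcripts in every library, as CPM on a log axis, ordered by the mean of the 3 nkx2.2(RNAi) libraries (orange) with the 3 control libraries in blue beside them; the open circle is a library with 0 counts. The orange points lie above the blue points for every transcript by the rule. A gap of at least 2-fold lies between the lowest orange and the highest blue point in 31 of the 63, which the rule favours.

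Separation of the groups was not rare in itself. Of the 14546 transcripts with a mean of at least 1 CPM in *nkx2.2(RNAi)*, 1926 (13.2%) had all *nkx2.2(RNAi)* libraries above all controls, and 63 (0.433%) also reached a ratio of 2. The lowest *nkx2.2(RNAi)* library exceeded the highest control library by at least 1.5-fold in 51 members. The rule itself favours such gaps, and their share over all transcripts was not counted. Of the 59 members that passed the filter on low counts (CPM above 1 in at least 3 libraries), 59 were higher in edgeR's exact test at a Benjamini-Hochberg adjusted p under 0.05, 55 in its quasi-likelihood test and 56 in DESeq2. Members with every control library under 1 CPM, such as dd_Smed_v6_31926_0_1, passed that filter only through their *nkx2.2(RNAi)* libraries, where the rule made them high. Over all 14871 transcripts tested, 771 (5.18%) were higher in the exact test, 452 (3.04%) in the quasi-likelihood test and 737 in DESeq2. *nkx2.2(RNAi)* replicate 1 stood apart from replicates 2 and 3, and without it 2097 were higher in the exact test. Since the rule chose on the same contrast, nothing is read from the members' counts.

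The threshold cut through a continuum. The 3 members nearest above it were dd_Smed_v6_1984_0_1 (ratio 2.00), dd_Smed_v6_1296_0_1 (2.02) and dd_Smed_v6_9198_0_1 (2.03). Nearest below it among separated transcripts were dd_Smed_v6_8621_0_1 (just under the cut, 14.8 against 7.42 CPM), whose best protein match is CDC42, a small GTPase of cell shape, then dd_Smed_v6_7406_0_1 and dd_Smed_v6_1531_0_1, both at a ratio of 1.97. Only dd_Smed_v6_11649_0_1 and dd_Smed_v6_24441_0_1, singled out after their values were seen, met the level and the ratio while their groups overlapped. A further 251 transcripts were at least doubled with separated groups but under 1 CPM, 38 of them with no control counts, and were left out by the rule.

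**Figure D2:**
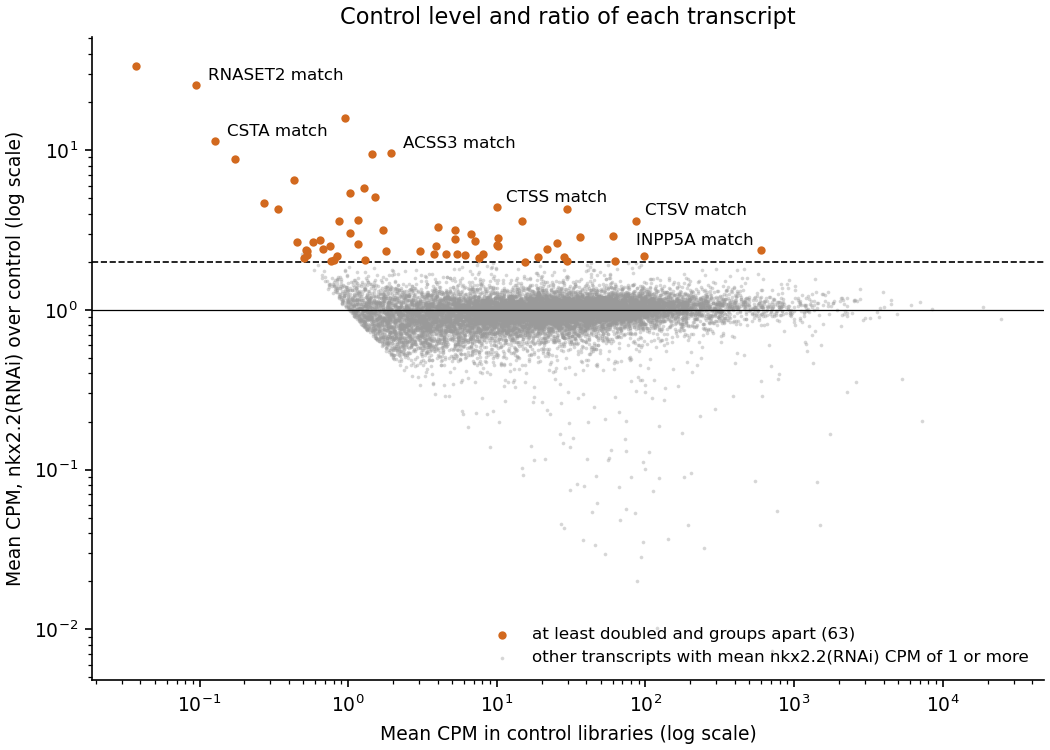
Mean CPM in control libraries against the ratio of group means, nkx2.2(RNAi) over control, both on log axes, for the 14546 transcripts with a mean of at least 1 CPM in nkx2.2(RNAi); the 63 members are orange, the dashed line is a ratio of 2, and the slanted lower left edge is the 1 CPM minimum. The largest ratios, 33.6 and 25.5, belong to transcripts under 0.1 CPM in controls, whereas the most abundant member, the INPP5A match, has a ratio of 2.37.

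For a view of the level in libraries that had no part in the choice, the rule was applied again without 1 *nkx2.2(RNAi)* library, and the chosen transcripts were then read in that library. Chosen without replicate 1, 60 transcripts passed, of which 58 lay above all controls in replicate 1 and 46 reached 2 times the control mean there, with a median of 2.77. Chosen without replicate 2, 64 passed, of which 62 lay above all controls in replicate 2 and 50 reached 2-fold, with a median of 2.54. Chosen without replicate 3, 74 passed, of which 69 lay above all controls in replicate 3 and 50 reached 2-fold, with a median of 2.34. The shares above every control in the unused library were 96.7%, 96.9% and 93.2%. Over all 14546 transcripts with at least 1 CPM, 36.4%, 27.3% and 24.3% lay above every control in replicates 1, 2 and 3. The same control libraries set both the choice and the reading, which favours high shares, so these counts are a description and nothing is drawn from them.

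The mirror set behaved otherwise in replicate 1. Over all transcripts tested, 808 (5.43%) were lower in the exact test and 509 (3.42%) in the quasi-likelihood test. The mirror set held 328 transcripts at or below 0.5 of the control mean with separated groups and at least 1 CPM in controls. When replicate 1 was left out, 1007 transcripts met that rule, of which 447 lay below all controls in replicate 1 and 224 were at or below 0.5, with a median ratio of 0.865. When replicate 2 or 3 was left out, 274 of 275 and 292 of 296 lay below all controls in the unused library. Replicate 1 thus stood apart for the lowered transcripts, but the share of all transcripts below every control in each replicate was not counted. Over all transcripts of at least 1 CPM, replicate 1 also lay above every control most often (36.4%, against 27.3% and 24.3%). These CPM values were not adjusted by the TMM scaling factors, which were 1.052, 0.952 and 0.936 for *nkx2.2(RNAi)* replicates 1, 2 and 3. The part of this scaling in the place of replicate 1 was not tested. For the 63 members, which the rule kept only if replicate 1 also lay above all controls, no such reading is possible. Of these, 53, 54 and 52 reached 2 times the control mean in replicates 1, 2 and 3, with medians of 2.90, 2.55 and 2.56. Replicate 1 was the highest of the 3 libraries for 27 members, replicate 2 for 19 and replicate 3 for 17. The 3 libraries were each at or above 2 times the control mean for 40 members.

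**Figure D3:**
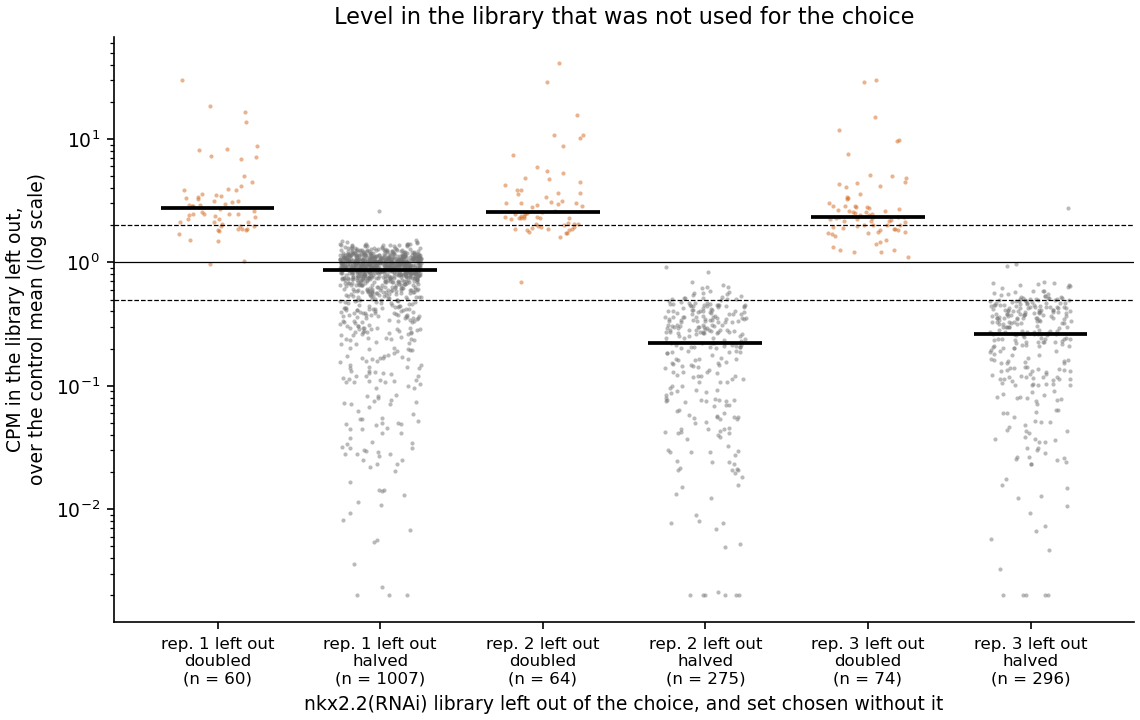
CPM in 1 nkx2.2(RNAi) library over the control mean (log axis) for transcripts chosen without that library, as doubled (orange) or halved (grey); black bars are medians, dashed lines mark 2 and 0.5, and values under 0.002 are drawn at 0.002. The doubled sets have medians of 2.77, 2.54 and 2.34 in the unused library, and the halved set chosen without replicate 1 has a median of 0.865 there.

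Names below are those of the best protein match in the annotation that accompanies the study (E at most 1e-05), and a match is not shown to be an ortholog. The annotation covered 60 members, of which 27 matched a named protein and 31 nothing. The other 2 matched an entry with a symbol but no descriptive name there (CG10527 and Sap-r). It lists mainly transcripts that moved in this comparison, so shares over it are not read as results. Roles are as known in vertebrates unless another animal is named.

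The most abundant member was dd_Smed_v6_266_0_1, with 1257, 1462 and 1530 CPM in *nkx2.2(RNAi)* against 595, 553 and 642 CPM in control libraries, a ratio of 2.37. Its best match is INPP5A, a phosphatase that removes a phosphate from inositol trisphosphate and so ends the calcium signal this messenger sets off. Every treated library lay above every control, and no other member came near its level.

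Cathepsins are proteases, most of them cysteine proteases of the lysosome, and 2 of their matches were members. The match dd_Smed_v6_2268_0_1, a match of cathepsin L2 (CTSV), had 338, 317 and 285 CPM in *nkx2.2(RNAi)* against 90.0, 85.4 and 84.9 CPM in control libraries, a ratio of 3.61. dd_Smed_v6_13139_0_1, a match of cathepsin S (CTSS), which cuts proteins in phagocytic immune cells, had 42.3, 42.7 and 48.5 CPM against 10.2, 9.13 and 10.9 CPM in control libraries, a ratio of 4.42. Both were nearly level within each group, and their groups lay more than 3-fold apart.

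Annotated cathepsins were found in both directions. All 9 transcripts with a cathepsin as best match came from the annotation of transcripts that moved in this comparison, so their number called says nothing of the family, and 6 were higher and 3 lower in the exact test at an adjusted p under 0.05, and 5 and 3 in the quasi-likelihood test. Higher beside the members were dd_Smed_v6_3422_0_1 (CTSL match, 168 ± 7.48 against 90.2 ± 10.9 CPM, SD, n = 3 each), dd_Smed_v6_175_0_1 (CTSV match, 1419 ± 43.1 against 919 ± 22.5 CPM) and dd_Smed_v6_456_0_1 (CTSF match, 1444 ± 54.7 against 1020 ± 50.3 CPM). The sixth, dd_Smed_v6_1363_0_1 (CTSL match, 157 against 127 CPM), passed the exact test only. Lower were dd_Smed_v6_48_0_1 (CTSL match, 1454 ± 301 against 7228 ± 72.2 CPM) and dd_Smed_v6_267_0_1 (*ctsla*, a marker of the intestine, 916 ± 219 against 2588 ± 199 CPM), and dd_Smed_v6_329_0_1 (CTSD match, 749 ± 47.4 against 1185 ± 23.7 CPM). Summed over these 9 transcripts, *nkx2.2(RNAi)* libraries held 6062, 6631 and 7303 CPM against 13270, 12880 and 13613 CPM in control libraries. The summed level was thus lower although 6 of the 9 were higher. Most of the difference came from a single transcript, dd_Smed_v6_48_0_1. Reads that fit several transcripts were counted at each, per the study's methods, and related cathepsins could share some.

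**Figure D4:**
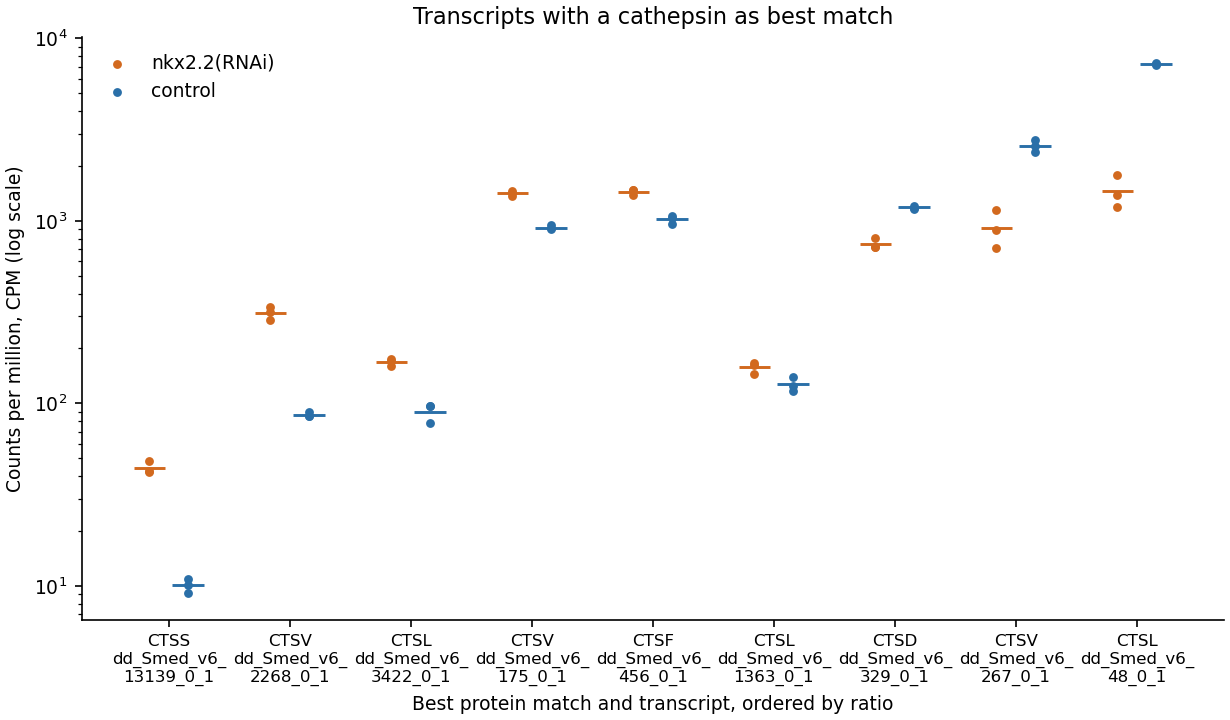
CPM (log axis) of the 9 transcripts tested with a cathepsin as best protein match, in the 3 nkx2.2(RNAi) libraries (orange) and the 3 control libraries (blue), with bars at the group means, ordered by ratio. The 2 members, the CTSS and one CTSV match, stand at the left with 44.5 against 10.1 and 313 against 86.7 CPM, and the CTSL match at the right has 1454 against 7228 CPM.

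Cystatins inhibit cathepsins by plugging their active site. The cystatin A (CSTA) match dd_Smed_v6_34439_0_1 had 1.72, 1.36 and 1.25 CPM in *nkx2.2(RNAi)* against 0.1102, 0.169 and 0.101 CPM in control libraries, a ratio of 11.4. It rests on 262 against 21 counts over 3 libraries each, and the ratio of pooled counts was 11.6 with a 95% exact interval of 7.42 to 19.0, which covers counting error only. Whether a count stands for a fragment, a single read of a pair or an alignment is not settled, and if fragments were counted more than once such intervals are too narrow. It was the only cystatin among the transcripts annotated here.

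The ribonuclease T2 (RNASET2) match dd_Smed_v6_16097_0_1, an RNA-degrading enzyme of lysosomes, had 1.76, 2.76 and 2.73 CPM in *nkx2.2(RNAi)* against 0.0367, 0.113 and 0.135 CPM in control libraries, a ratio of 25.5 from 429 against 16 counts (pooled ratio 24.9, interval 15.2 to 44.0). The other RNASET2 match, dd_Smed_v6_1008_0_1, was far more abundant and was lower, with 171 ± 10.2 against 244 ± 20.0 CPM (adjusted p = 0.00253 in the exact test and 0.0323 in the quasi-likelihood test). The rare transcript was thus higher and the abundant one lower.

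Group XV phospholipase A2 (PLA2G15) is a lysosomal enzyme that removes fatty acids from phospholipids. Its match dd_Smed_v6_7730_0_1 had 72.0, 64.3 and 61.0 CPM in *nkx2.2(RNAi)* against 24.6, 25.7 and 25.4 CPM in control libraries, a ratio of 2.61. A further PLA2G15 match just outside the set, dd_Smed_v6_3058_0_1, had 80.4, 76.7 and 77.2 against 45.6, 43.2 and 37.9 CPM. Both were higher in every treated library. ABHD3, which cleaves phosphatidylcholines with unusual chains, was the match of dd_Smed_v6_9198_0_1, with 69.1, 55.7 and 56.2 against 31.6, 27.3 and 30.5 CPM. The phospholipase B1 (PLB1) match dd_Smed_v6_2690_0_1, whose vertebrate counterpart works at the gut surface, was lower, with 23.4 ± 7.89 against 124 ± 6.49 CPM. Saposins are small lysosomal proteins that present lipids to hydrolases, and dd_Smed_v6_6531_0_1, named after its values were seen, matched the *Drosophila* saposin precursor Sap-r. It had 14.9, 15.1 and 13.9 CPM in *nkx2.2(RNAi)* against 5.11, 5.96 and 4.65 CPM in control libraries, a ratio of 2.80. Both tested transcripts annotated with the vertebrate precursor prosaposin (PSAP) as best match were lower. dd_Smed_v6_215_0_1 had 67.0 against 1495 CPM and dd_Smed_v6_396_0_1 had 175 against 603 CPM. They were held only in the annotation made for this comparison, so their direction says nothing of other saposins.

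Enzymes of small lipids and fuels formed the next group. ACSS3 activates short fatty acids such as propionate in mitochondria, and its match dd_Smed_v6_19627_0_1 had 15.9, 17.0 and 23.0 CPM in *nkx2.2(RNAi)* against 2.50, 1.74 and 1.62 CPM in control libraries, a ratio of 9.53. This was the largest ratio of any member with a named match and at least 1 CPM in controls. The second tested ACSS3 match, dd_Smed_v6_3948_0_1, was more abundant and less changed, at 226 ± 6.14 against 162 ± 13.5 CPM. GGPS1 makes geranylgeranyl diphosphate, an isoprenoid of the mevalonate pathway, and its match dd_Smed_v6_35289_0_1 had 2.59, 4.13 and 2.61 against 0.900, 0.863 and 0.842 CPM. TTPAL belongs to the vitamin E transfer proteins, and its match dd_Smed_v6_12402_0_1 had 13.3, 12.5 and 10.4 against 4.96, 5.94 and 5.37 CPM. Of the 2 other tocopherol transfer matches, the TTPA match dd_Smed_v6_6149_0_1 was higher (27.5 against 19.7 CPM) and the TTPAL match dd_Smed_v6_9151_0_1 had 2.86 against 3.30 CPM and did not pass.

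The same comparison was read over transcripts that the study annotated with Gene Ontology terms of lipid transport, triglyceride and cholesterol, lists that were made from another data set and taken whole. Of the 294 listed transcripts that were tested, 19 (6.46%) were higher and 39 (13.3%) lower in the exact test, beside 5.18% and 5.43% of all transcripts, and 10 and 34 in the quasi-likelihood test. Without *nkx2.2(RNAi)* replicate 1, 41 were higher and 68 lower in the exact test. The median log2 fold change over the lists was -0.03, against 0.02 over all transcripts. By list, 3 of 49 lipid transport, 10 of 144 triglyceride and 10 of 156 cholesterol transcripts were higher, and 8, 22 and 22 were lower. Of the 294, 2 (0.680%) were members of the doubled set, beside 0.433% of all transcripts with at least 1 CPM. Both were in the cholesterol list, the GGPS1 match and the match of synaptotagmin 7 (SYT7), a calcium sensor of lysosome and vesicle fusion, which had 4.06, 3.44 and 5.16 CPM in *nkx2.2(RNAi)* against 1.87, 1.48 and 2.04 CPM in control libraries (dd_Smed_v6_22061_0_1). The transport and triglyceride lists held none. Nearest below the ratio of 2 among listed transcripts of at least 1 CPM with separated groups was a match of SOAT1, which esterifies cholesterol for storage, dd_Smed_v6_2567_0_1, with 124, 99.8 and 96.7 against 56.3, 50.9 and 59.8 CPM, while a second SOAT1 match, dd_Smed_v6_4278_0_1, was lower in the exact test only (22.1 against 33.4 CPM).

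Proteins outside the cell or on its surface made up a further group. dd_Smed_v6_5786_0_1, a match of the matrix protein SBSPON, had 113, 110 and 88.6 CPM in *nkx2.2(RNAi)* against 37.3, 35.7 and 36.4 CPM in control libraries, a ratio of 2.85. The match of anosmin 1 (ANOS1), a secreted protein that guides migrating neurons, dd_Smed_v6_13188_0_1, had 20.4, 15.5 and 18.2 against 8.07, 7.59 and 8.37 CPM. Another ANOS1 match, dd_Smed_v6_10075_0_1, was more abundant, with 27.7 against 26.7 CPM, and did not pass. The match of leishmanolysin-like peptidase (LMLN), a zinc protease of cell surfaces, dd_Smed_v6_10609_0_1, had 18.7, 15.8 and 14.6 against 4.28, 4.86 and 6.47 CPM. The control libraries of dd_Smed_v6_5786_0_1 and dd_Smed_v6_13188_0_1 were close together, and those of the LMLN match ran from 4.28 to 6.47 CPM. For the collagen XV (COL15A1) match dd_Smed_v6_9030_0_1 the treated libraries were even, at 15.9, 15.3 and 16.6 CPM. Its controls were not: control replicate 2 stood at 12.8 CPM beside 4.87 and 4.90 CPM in the other controls. It passed the exact test (adjusted p = 0.0192) and neither the quasi-likelihood test (0.0907) nor DESeq2 (0.12). Of 11 tested matrix and adhesion matches, 4 were higher and 2 lower in the exact test, and 2 and 2 in the quasi-likelihood test. Lower were the TNXB match dd_Smed_v6_1144_0_1 (186 against 401 CPM) and the LAMA1 match dd_Smed_v6_7924_0_1 (33.5 against 53.9 CPM). The calls shaped this list too, so nothing is read from its tally. The alkaline phosphatase (ALPL) match dd_Smed_v6_13011_0_1, an enzyme that strips phosphates outside the cell, had 25.3, 26.3 and 25.4 against 9.88, 8.46 and 12.2 CPM.

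Signalling proteins and a transcription factor were among the members of low to middle level. TRAF1 is an adaptor of tumour necrosis factor receptors, and its match dd_Smed_v6_19417_0_1 had 15.3, 13.5 and 10.9 CPM in *nkx2.2(RNAi)* against 5.31, 3.36 and 3.30 CPM in control libraries, a ratio of 3.32. Of 32 tested transcripts whose match names the tumour necrosis factor receptor, 21 of them held in the annotation made for this comparison, 5 were higher and 16 lower in the exact test, and 5 and 12 in the quasi-likelihood test. The calls shaped this list, so its tally is not set against the 5.18% and 5.43% of all transcripts. Among those that were higher, the TRAF3 match dd_Smed_v6_5510_0_1 had 73.2 against 41.1 CPM. Among the 16 that were lower, another TRAF1 match, dd_Smed_v6_2817_0_1, had 24.5 against 34.5 CPM and passed the exact test only. The TRAF6 match dd_Smed_v6_13811_0_1, also lower, had 0.0751 against 3.65 CPM. DOK3, an adaptor that restrains signalling in immune cells, was the match of dd_Smed_v6_9490_0_1, with 44.8, 38.3 and 37.5 against 17.7, 19.4 and 19.4 CPM. EGR4, a zinc finger factor of the early growth response family, was the match of dd_Smed_v6_9273_0_1, with 10.9, 7.46 and 7.02 against 3.33, 4.03 and 3.96 CPM, and the other EGR4 match, dd_Smed_v6_7731_0_1, was lower (7.66 against 13.4 CPM). Near the 1 CPM minimum, the NOTCH2 match dd_Smed_v6_39015_0_1 (1.48, 1.66 and 1.84 against 0.992, 0.731 and 0.691 CPM), a receptor of cell contact, and the DLC1 match dd_Smed_v6_33994_0_1 (2.09, 1.54 and 1.91 against 0.937, 0.656 and 0.943 CPM) were raised just over 2-fold.

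The remaining named matches were TMEM56, DPY19L3, PTPRH, NYNRIN, TRIM71 and EIF5A, listed here to complete the set after their values were seen. DPY19L3 attaches mannose to tryptophan, PTPRH is a receptor phosphatase, TRIM71 a ubiquitin ligase known for repressing messenger RNAs in embryonic cells, and EIF5A a translation factor. Their ratios lay between 2.05 and 2.74. The EIF5A match dd_Smed_v6_14880_0_1, at 1.18, 1.07 and 1.23 CPM in *nkx2.2(RNAi)* against 0.753, 0.450 and 0.371 CPM in control libraries, passed the exact test and not the quasi-likelihood test.

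Transcripts with no protein match were a large part of the set. They numbered 31, among them 5 of the 10 most abundant members and 7 of the 10 with the largest ratios. Their median ratio was 3.0 and their median length 625 bases, against 2.52 and 1325 bases in the 29 members with a match. At high level, dd_Smed_v6_1705_0_1 had 183, 223 and 228 CPM in *nkx2.2(RNAi)* against 102, 85.1 and 105 CPM in control libraries. dd_Smed_v6_102_0_1 had 176, 184 and 171 against 65.2, 55.3 and 61.2 CPM. dd_Smed_v6_3632_0_1 had 96.8, 133 and 151 against 32.1, 30.3 and 26.2 CPM, a ratio of 4.29 that was the largest among the 10 most abundant members. Their function is not known from the annotation. Also among the 10 most abundant were dd_Smed_v6_1296_0_1 (123, 132 and 125 against 61.2, 54.5 and 72.6 CPM) and dd_Smed_v6_6887_0_1 (78.3, 52.0 and 52.3 against 28.4, 26.9 and 29.9 CPM).

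The largest ratio of all belonged to dd_Smed_v6_31926_0_1, which has no match and is 380 bases long. It had 1.11, 1.52 and 1.11 CPM in *nkx2.2(RNAi)* against 0.0551, 0.0563 and 0 CPM in control libraries, or 223 against 6 counts over 3 libraries each, and the pooled ratio was 34.5 with an exact 95% interval of 15.6 to 95.1. dd_Smed_v6_36912_0_1 combined a large ratio with a firmer control level: it had 15.7, 14.9 and 14.4 CPM against 1.36, 0.619 and 0.876 CPM, from 2707 against 159 counts, with a pooled ratio of 15.8 (interval 13.5 to 18.7). dd_Smed_v6_18502_0_1 had 12.5, 14.7 and 13.9 against 1.43, 1.31 and 1.57 CPM, a ratio of 9.53. The treated libraries of these 3 differed among themselves by 1.37-fold or less. The other unmatched transcripts of the 10 largest ratios were dd_Smed_v6_24743_0_1 (8.81), dd_Smed_v6_19947_0_1 (6.52), dd_Smed_v6_10877_0_1 (5.76) and dd_Smed_v6_63479_0_1 (5.36). The other 16 members without a match, leaving aside 3 that varied within the treated group, lay between 1.23 and 52.8 CPM in *nkx2.2(RNAi)* and between 0.336 and 21.6 CPM in control libraries, with ratios of 2.03 to 5.08 (median 2.70) and lengths of 397 to 1189 bases. All 10 of the largest ratios came from transcripts under 2 CPM in controls, and none was among the 10 most abundant, so size of ratio and level were held by different transcripts.

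The set was short in length, a feature the rule did not use, and part of it had no match. Its median length was 873 bases, against 1458 bases over all transcripts with at least 1 CPM in *nkx2.2(RNAi)* and 1200 bases in the mirror set of lowered transcripts. Under 1000 bases lay 34 members (54.0%), against 27.3% and 37.5% in those sets. Of the short members, 23 had no match, 8 had one and 3 were not covered by the annotation. In the part of the annotation made for this comparison, no match was given for 29 of 58 members (50.0%) and 113 of 286 transcripts of the mirror set (39.5%). It was missing for 145 of 496 other transcripts that were higher (29.2%) and 216 of 638 that were lower (33.9%). Since this annotation lists mainly transcripts that moved here, these shares are not read as results. The members without a match were also less abundant, with a median of 7.33 CPM in *nkx2.2(RNAi)* against 14.7 CPM in those with one, and the part of level in these shares was not tested. No member belonged to an assembly component with more than 1 transcript in the table.

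**Figure D5:**
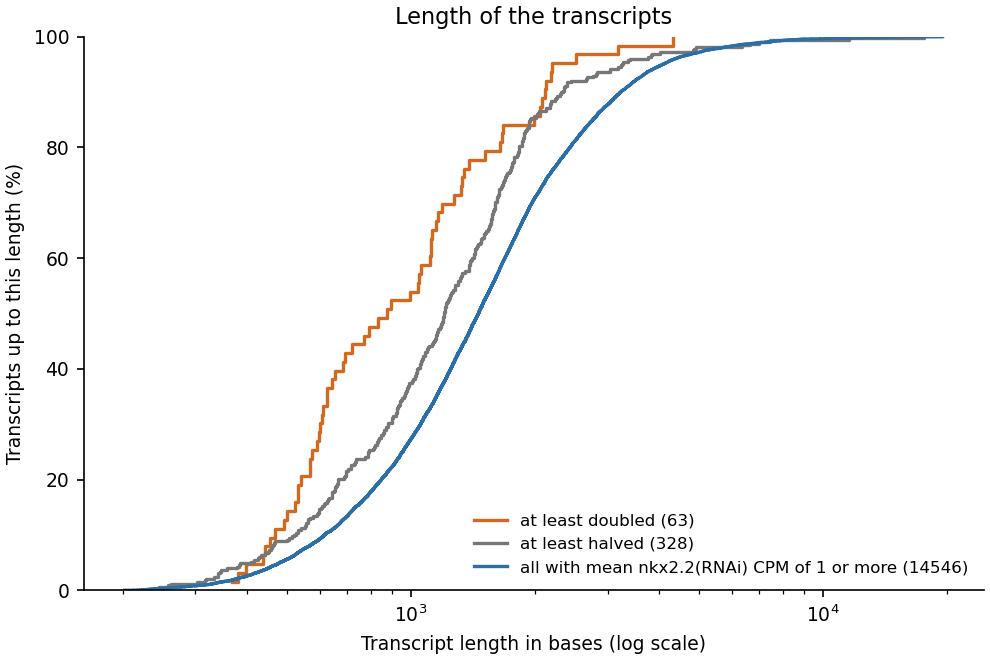
Share of transcripts up to a given length (log axis, bases) in the 63 members (orange), the 328 transcripts of the mirror set (grey) and the 14546 transcripts with a mean of at least 1 CPM in nkx2.2(RNAi) (blue). The orange curve lies to the left, with a median of 873 bases against 1200 and 1458 bases.

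A few members varied within the treated group. In 4 the highest *nkx2.2(RNAi)* library exceeded the lowest by more than 2-fold, and these are named after their values were seen. dd_Smed_v6_14488_0_1 had 2.73, 0.501 and 0.581 CPM in *nkx2.2(RNAi)* against 0.423, 0.188 and 0.202 CPM in control libraries, and dd_Smed_v6_12455_0_1 had 5.37, 2.04 and 1.64 against 1.05, 1.35 and 1.11 CPM. Replicate 1 was the high library in both. dd_Smed_v6_1202_0_1 had 17.3, 25.7 and 42.7 against 9.31, 8.94 and 12.3 CPM, with replicate 3 highest, and dd_Smed_v6_17481_0_1 had 1.71, 1.31 and 0.700 against 0.294, 0.656 and 0.640 CPM. Over the whole set of 63, 48 members kept a ratio of at least 2 whichever single library was left out, and 15 did not.

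Among markers of other cells, the intestinal *apob-1* (dd_Smed_v6_636_0_1) stood at 0.731% of its control level, *apob-2* (dd_Smed_v6_194_0_1) at 39.7% and *ctsla* at 35.4%. Intestinal *npc2* (97.7%) did not pass and *slc22a6* (151%) was higher. The controls of *apob-2* were uneven, at 588, 1157 and 638 CPM, against 314, 232 and 399 CPM in *nkx2.2(RNAi)* libraries. The markers of neoblasts (*piwi-1*, *tgs-1*), early epidermal progeny (*prog-1*), neurons (*ChAT*) and pharynx (*laminin*), 5 in all, lay between 87.2% and 96.6% of control and none passed the exact test. Their part in the levels of the members was not tested. RNA came from whole animals, so more cells of a type and more RNA per cell cannot be told apart for any member.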

How the data were processed

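Polyadenylated RNA of whole planarians was sequenced as stranded pairs of 150 bases in 6 libraries, 3 per group. The deposited counts are whole numbers per assembled transcript, not normalized; the authors checked reads with FastQC 0.11.5, trimmed them, aligned them with Bowtie2 2.3.1 and, per the study's methods, summed them with featureCounts of Subread 1.6.3, counting reads that fit several transcripts at each. What a count stands for (fragment, read or alignment) is not settled by the sources. Totals were 53.3 to 65.5 M per library. A row with no transcript name held 0 counts and was left out. A second deposited table, the authors' own comparison (log2 fold changes, average log2 CPM, adjusted p-values), was not used.

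CPM was the count over the library total. Following the study's methods, transcripts with CPM above 1 in at least 3 libraries were tested with TMM factors and the two-sided exact test of edgeR 4.0.16 (R 4.3.3), with Benjamini-Hochberg adjustment over all transcripts tested. Counts from the quasi-likelihood test stand beside it. DESeq2 1.42.0, other factors and filters, and each library left out were alternatives.

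The members and lists were chosen with earlier results of these data known. Named were the 10 members of highest level, the 10 of largest ratio, those in a listed protein family, the 3 on either side of the ratio of 2, the other cathepsins, *nkx2.2* and called transcripts of the lipid lists; others are said to be named after their values were seen. Matches came from the annotation in the study's supplementary tables. No genome was used.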

Additional observations from a re-analysis of the deposited data

How the results depend on the processing

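The set itself depended most on the ratio asked for: a minimum of 1.5 gave 205 transcripts and a minimum of 3 gave 24. TMM-scaled CPM gave 70 and relative log expression scaling 68, each holding all 63 members. Minimum levels of 0.5 and 2 CPM gave 80 and 46. With single libraries left out the set ranged from 60 to 89, with 89 reached without control replicate 2.

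Counts over all transcripts moved more. By quasi-likelihood, 452 transcripts were higher and 509 lower, against 771 and 808 in the exact test, and 10 of the lipid lists were higher against 19. Leaving out single libraries gave 292 to 2097 higher and 418 to 2508 lower transcripts, and 5 to 41 higher and 27 to 68 lower in the lipid lists, each maximum without *nkx2.2(RNAi)* replicate 1. Without *nkx2.2(RNAi)* replicate 2, *nkx2.2(RNAi)* replicate 3, control replicate 1 and control replicate 3, the higher transcripts numbered 292, 311, 370 and 476, and those of the lipid lists 5, 6, 6 and 10. Lower transcripts numbered 485 without *nkx2.2(RNAi)* replicate 2, 418 without control replicate 1 and 499 without control replicate 3. The cause was not tested. With the replicate number as a replicate block, the quasi-likelihood test had 797 higher and 1075 lower transcripts, against 452 and 509 without it, but the numbers pair no samples by the labels, and deviations of libraries with the same number correlated at 0.4, 0 and 0.17 across transcripts.

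For the 34 members named by rule, 311 of 316 fold changes recomputed with other factors, DESeq2, the replicate block or a library left out had the same sign and call as before. The other 5 were all of the COL15A1 match dd_Smed_v6_9030_0_1, which missed the threshold in DESeq2 and without either of *nkx2.2(RNAi)* replicates 2 and 3 or control replicates 1 and 3. The quasi-likelihood test without a block was not among these settings, and it left 55 of the 59 tested members called. Members with every control library under 1 CPM failed the filter when an *nkx2.2(RNAi)* library was left out, so they had no value there. Among them were dd_Smed_v6_31926_0_1 and the matches of RNASET2, CSTA, GGPS1, NOTCH2 and DLC1. All members were chosen on this same contrast, so the tally carries no test. Of all 1070 values recomputed for named transcripts 937 kept their call, 132 lost it, 1 gained it and 0 reversed. One count is at most 0.0188 CPM, so ratios of the members lowest in controls rest on few control counts. Over the control libraries together, dd_Smed_v6_31926_0_1 had 6 counts, whereas dd_Smed_v6_36912_0_1, also under 1 CPM in controls, had 159.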
